A study of Homo sapiens with 9 samples.

Results

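The transcripts of 10 transcription factors and regulators of mammary epithelial lineages were followed through 3 lines of human breast cancer cells by RNA-seq. They were *GATA2*, *GATA3*, *GATA6*, *FOXA1*, *SPDEF*, *ELF3*, *EHF*, *TFAP2A*, *TFAP2C* and *TRIM29*, taken by symbol from the 58884 genes of the count table, and all 10 were among the 13055 genes kept by the filter on low counts. That filter goes by the largest normalized count of a gene in any library. *FOXA1* was kept only through the line BrM2 and *TRIM29* only through the parental line, where each is highest. The parental line MDA-MB-231 (Par) is an established claudin-low line, in which epithelial genes are low and mesenchymal genes high. LM2 and BrM2 are sub-populations of it that were selected in mice for growth in the lung and in the brain. The labels name no engineered allele and no agent for any line, all were grown as monolayers in DMEM with serum, and each had 3 replicates harvested at different passages. They are thus sub-populations of a single line, measured in culture and not in the host organ.

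The epithelium of the breast has an inner luminal and an outer basal layer, and luminal cells follow either an alveolar or a hormone-sensing path. *GATA3* and *FOXA1*, together with the oestrogen receptor, hold the hormone-sensing luminal state, and FOXA1 is a pioneer factor that opens chromatin for other factors. The epithelium-specific ETS factors *SPDEF*, *ELF3* and *EHF* drive secretory and differentiated programmes. The AP-2 proteins *TFAP2A* and *TFAP2C* act early in mammary development and in luminal breast cancer, and *TRIM29*, a TRIM protein that is not a classical DNA-binding factor, is made in basal and squamous cells. In bulk RNA a change in transcripts per cell cannot be told apart from a change in the share of cells that make them.

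Counts on genes ranged from 19878889 to 23948765 per Par library, from 23581495 to 24511790 for LM2 and from 14371867 to 22055222 for BrM2. All fold changes and differences between lines are on the log2 scale unless a fold is named. Values are given as CPM, counts scaled to a common library size after TMM normalization. Replicate 1 stood apart in all 3 lines. Across 12989 genes its log2 difference from replicates 2 and 3 followed the GC content of the transcript (Spearman's rho 0.797, over genes that share these libraries, given as a description). Of the factors, *SPDEF* (GC content 64.6%) and *ELF3* (56.0%) were 1.29 and 1.13 higher in replicate 1 on the log2 scale, averaged over the lines. *EHF*, with a GC content of 40.6%, was lower there by a log2 difference of -1.16. The replicate numbers were taken to pair the libraries across lines. Values from a fit with the replicate number as a block are given where they change a call of a factor. For the other named genes they are given for only some of the calls that the block changed. Whether replicates 2 and 3 match across lines was not tested. Without the block, the common dispersion was 0.110, and with it 0.0207.

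Most of the factors differed between lines, and in different directions. In edgeR (quasi-likelihood, p adjusted after Benjamini and Hochberg over all 13055 genes, threshold 0.05), 6 of the 10 factors differed between LM2 and Par. Of these, 2 were higher in LM2 (*FOXA1*, *TFAP2C*) and 4 lower (*GATA3*, *GATA6*, *SPDEF*, *TRIM29*). Of all genes, 8.69% passed that comparison. Between BrM2 and Par 5 factors differed, where 13.3% of all genes passed. In BrM2, *GATA2*, *FOXA1* and *TFAP2C* were higher and *ELF3* and *TRIM29* lower. Between BrM2 and LM2 4 factors passed (*GATA6*, *FOXA1*, *SPDEF*, *TRIM29*), all higher in BrM2, against 8.1% of all genes. The median log2 fold change of the 10 factors was -1.56 for LM2 against Par, -0.15 for BrM2 against Par and 1.08 for BrM2 against LM2. Over all genes these medians were 0.01, -0.02 and -0.03.

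With the replicate block, 8 factors passed for LM2 against Par (2 higher, 6 lower), 8 for BrM2 against Par (4 higher, 4 lower) and 10 for BrM2 against LM2 (8 higher, 2 lower). The blocked fit called 34.5%, 42.7% and 37.5% of all genes in these comparisons. The libraries of the lines did not overlap for 8 factors between LM2 and Par, where 25.2% of all genes had no overlap. The same held for 6 factors between BrM2 and Par, against 31.3% of all genes, and for 8 between BrM2 and LM2, against 23.1%. The comparisons share libraries and are not independent of each other.

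**Figure D1:**
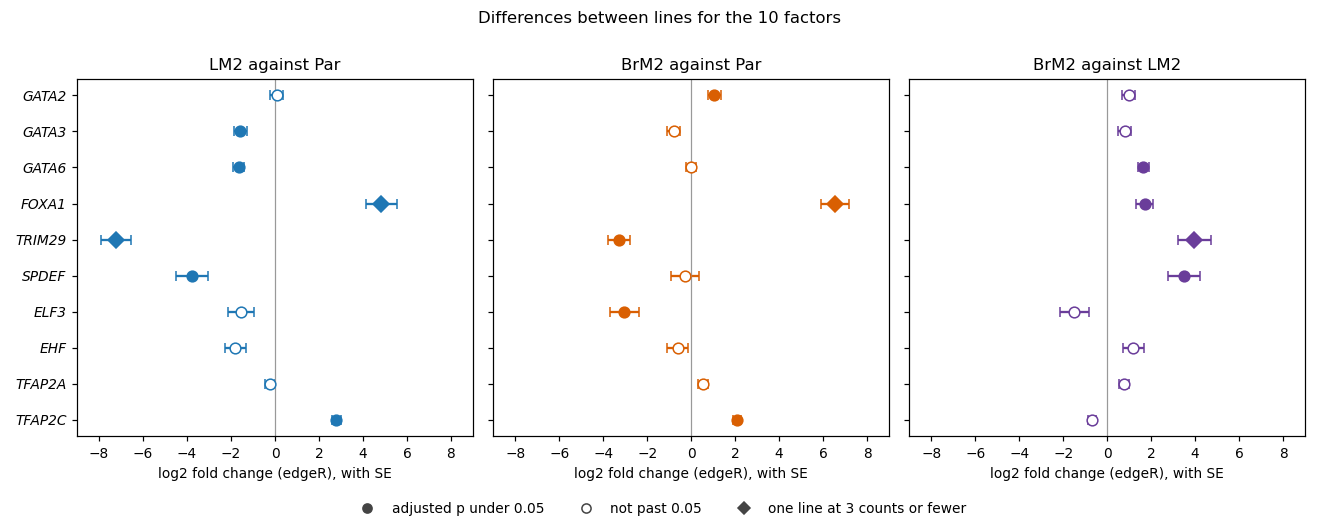
Log2 fold changes from edgeR (horizontal axis) with their standard errors for the 10 factors (vertical axis) in LM2 against Par, BrM2 against Par and BrM2 against LM2. Filled symbols passed an adjusted p of 0.05 and diamonds mark fitted values in which a line was at or under 3 counts in every library, which are not bounds. *TFAP2C* and *FOXA1* lie right of 0 in both comparisons with Par, and *GATA6*, *FOXA1*, *SPDEF* and *TRIM29* are filled and right of 0 for BrM2 against LM2.

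Among the AP-2 genes, *TFAP2C* rose in both metastatic lines. This gene (chr20:56629306-56639283 in RefSeq's GRCh38.p14, as all positions here) encodes AP-2 gamma, which is known in luminal breast cancer for regulating the oestrogen receptor gene. It was at 11.8, 11.2 and 9.31 CPM in the Par libraries, at 82.9, 71.6 and 68.1 CPM in LM2 and at 47.8, 50.01 and 39.2 CPM in BrM2. The 3 lines did not overlap, with LM2 highest, BrM2 between and Par lowest. In edgeR its log2 fold change reached 2.78 in LM2 against Par (SE 0.20, adjusted p = 0.000118), where SE is the standard error, and 2.08 in BrM2 (SE 0.20, adjusted p = 0.000257), and both calls held without any of the 9 libraries. Between BrM2 and LM2 the log2 difference was -0.70 (SE 0.19), and edgeR's adjusted p was 0.0569 unblocked and 0.000973 with the block.

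*TFAP2A* (chr6:10396677-10419659), which encodes AP-2 alpha, had a narrower range. Par libraries were at 6.30, 6.24 and 4.99 CPM, LM2 libraries at 4.97, 4.57 and 5.36 CPM and BrM2 libraries at 10.3, 7.99 and 6.85 CPM. Each BrM2 library exceeded every Par and LM2 library, while Par and LM2 overlapped. No comparison passed without the block, with a log2 difference of 0.52 for BrM2 against Par (SE 0.23, adjusted p = 0.197, edgeR) and 0.75 for BrM2 against LM2 (SE 0.23, adjusted p = 0.0876). With the block, these adjusted p were 0.0439 and 0.0105. Of the exon bases of *TFAP2A*, 11.4% overlap *TFAP2A-AS2* and 5.33% *TFAP2A-AS1* on the other strand, and the strand that was counted is not given in the sources used here. *TFAP2A-AS2*, matched by identifier, had 0.754 CPM ± 0.232 in Par, 1.36 ± 0.206 in LM2 and 2.07 ± 1.10 in BrM2 (SD, n = 3). The part of these neighbours in the *TFAP2A* values was not tested.

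The GATA factors are zinc finger proteins named for the site they bind, and they set lineage in many tissues. *GATA3* (chr10:8045333-8075198), the luminal member, had 15.5, 14.2 and 9.04 CPM in Par, 4.67, 4.49 and 3.83 CPM in LM2 and 10.2, 5.78 and 6.52 CPM in BrM2. Each LM2 library was below all others, and BrM2 overlapped Par. *GATA3* fell by 1.57 in LM2 (SE 0.30, adjusted p = 0.0120, edgeR). This call was lost without Par replicate 2 (adjusted p = 0.0539), LM2 replicate 2 (0.0559) or LM2 replicate 3 (0.0594), with log2 differences of -1.50, -1.60 and -1.49. For BrM2 against Par the log2 difference was -0.79 (SE 0.29, adjusted p = 0.129), and 0.00739 with the block. It also passed without BrM2 replicate 1, at -1.07 (adjusted p = 0.0477). The difference of BrM2 from LM2 was 0.79 (adjusted p = 0.169, and 0.0134 with the block).

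*GATA6* (chr18:22169589-22202528), known from endoderm and from epithelial cancers, was low in LM2, while Par and BrM2 overlapped. The libraries were at 14.4, 10.5 and 11.04 CPM in Par, 4.92, 3.43 and 3.14 CPM in LM2 and 12.8, 11.2 and 11.7 CPM in BrM2. LM2 did not overlap with either line. It fell by 1.64 in LM2 (SE 0.25, adjusted p = 0.00370, edgeR), and BrM2 exceeded LM2 by 1.64 (SE 0.25, adjusted p = 0.00390). Both calls held without any of the 9 libraries. The log2 difference between BrM2 and Par was -0.01 (SE 0.24, adjusted p = 0.990).

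*GATA2* (chr3:128479422-128493201), which is best known from blood stem cells and endothelium, was highest in BrM2. Par had 9.51, 7.60 and 5.74 CPM, LM2 8.84, 7.22 and 7.93 CPM and BrM2 22.0, 11.5 and 13.9 CPM. BrM2 lay above both other lines, which overlapped. *GATA2* rose by 1.05 in BrM2 against Par (SE 0.30, adjusted p = 0.0491, edgeR), and with the block the adjusted p was 0.00120. Without the block, among the fits that leave out a single library, this call was kept only when LM2 replicate 1 was left out. Without Par replicates 1, 2 or 3 the adjusted p was 0.0590, 0.153 and 0.172, without LM2 replicates 2 or 3 it was 0.0804 and 0.0769, and without BrM2 replicates 1, 2 or 3 it was 0.116, 0.0529 and 0.103. The log2 difference ranged from 0.74 without BrM2 replicate 1 to 1.24 without Par replicate 1. The difference of BrM2 from LM2 was 0.98 (adjusted p = 0.0872, and 0.00277 with the block).

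*FOXA1* (chr14:37589552-37595249) was at or under 1 count in every Par library and was counted in all LM2 and BrM2 libraries. There were 0, 0 and 1 counts in Par, 13, 13 and 16 in LM2 and 18, 42 and 55 in BrM2. In CPM, LM2 was at 0.646, 0.530 and 0.613 and BrM2 at 1.33, 1.85 and 2.64. The 3 lines did not overlap. Since Par was at the floor of 3 counts per library, which is 0.118 to 0.158 CPM there, folds against Par are lower bounds. *FOXA1* was at least 4.25-fold higher in LM2 (adjusted p = 0.00336, edgeR) and at least 13.8-fold higher in BrM2 (adjusted p = 0.000306), and both calls held without any single library. BrM2 exceeded LM2 by a log2 difference of 1.71 (SE 0.40, adjusted p = 0.0306). That call was lost without LM2 replicate 2 (adjusted p = 0.139), LM2 replicate 3 (0.105), BrM2 replicate 2 (0.0844) or BrM2 replicate 3 (0.145), with log2 differences from 1.42 to 1.73. The level stayed low in all lines, at 0.439 CPM per kb of exon in BrM2.

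*SPDEF* (chr6:34537802-34556329), the ETS factor of goblet and luminal secretory cells, was far lower in LM2 than in the other lines. It had 15.9, 16.9 and 10.3 CPM in Par, 2.14, 0.653 and 0.421 CPM in LM2 and 22.1, 4.94 and 8.48 CPM in BrM2. Each LM2 library was below all others, and the BrM2 libraries spread on both sides of the Par values. *SPDEF* fell by 3.77 in LM2 (SE 0.73, adjusted p = 0.0130, edgeR), and BrM2 exceeded LM2 by 3.48 (SE 0.73, adjusted p = 0.0191). Without LM2 replicate 2 the adjusted p of these calls was 0.0705 and 0.0957, and without LM2 replicate 3 it was 0.0506 and 0.0671. The log2 differences were -3.51 and 3.23 without the former and -3.37 and 3.09 without the latter. For BrM2 against Par it was -0.28 (SE 0.64, adjusted p = 0.864). Within replicate numbers it was 0.48 in replicate 1, -1.77 in replicate 2 and -0.28 in replicate 3, and without BrM2 replicate 1 the fitted difference was -1.10 (adjusted p = 0.280). It passed when replicate 1 was left out of all lines, at -1.002 (adjusted p = 0.0404), but not when the block was added to that fit (-0.98, adjusted p = 0.0805).

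*ELF3* (chr1:202010587-202017183), which is induced by inflammation and in differentiating epithelium, was highest in Par and lowest in BrM2. The libraries were at 7.20, 3.53 and 4.20 CPM in Par, 2.68, 1.55 and 0.919 CPM in LM2 and 1.03, 0.132 and 0.719 CPM in BrM2. Par lay above both other lines, and LM2 and BrM2 overlapped. It fell by 3.04 in BrM2 (SE 0.66, adjusted p = 0.0157, edgeR), a call lost without BrM2 replicate 3 (log2 difference -3.21, adjusted p = 0.0621). In LM2 the log2 difference from Par was -1.54 (SE 0.59, adjusted p = 0.171, and 0.00426 with the block), and between BrM2 and LM2 it was -1.50 (adjusted p = 0.236, and 0.0184 with the block). Of the 50-base stretches of its transcripts, 16.5% occur on either strand in another gene, mostly in *ELF3-AS1*. That neighbour on the other strand overlaps 9.24% of the exon bases of *ELF3*.

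*EHF* (chr11:34621093-34663288), the relative of *ELF3* found in glandular epithelium, had the highest mean per length of the 10 factors in Par. Its SD there overlapped that of *SPDEF*. It had 41.7, 70.7 and 79.8 CPM in Par, 7.30, 26.4 and 21.5 CPM in LM2 and 25.6, 55.1 and 44.5 CPM in BrM2. Replicate 1 was the lowest library of each line, and Par lay above LM2 throughout. The log2 difference was -1.80 for LM2 against Par (SE 0.49), and edgeR's adjusted p was 0.0565 unblocked and 2.7e-05 with the block. It passed without the block when BrM2 replicate 1 was left out (adjusted p = 0.0436). For BrM2 against Par the log2 difference was -0.62 (adjusted p = 0.508, and 0.0148 with the block) and for BrM2 against LM2 1.18 (adjusted p = 0.203, and 0.000466 with the block). Within each replicate number the order was Par, BrM2, LM2.

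*TRIM29* (chr11:120111286-120138113), also known as ATDC, was at or under 2 counts in LM2 and low in BrM2. There were 199, 106 and 163 counts in Par, 2, 1 and 0 in LM2 and 16, 15 and 10 in BrM2, or 10.5, 5.13 and 6.40 CPM in Par and 1.18, 0.662 and 0.479 CPM in BrM2. The lines did not overlap. With LM2 at the floor of 3 counts per library, *TRIM29* was at least 56.9-fold lower in LM2 than in Par (adjusted p = 0.000382, edgeR). It fell by 3.27 in BrM2 (SE 0.50, adjusted p = 0.00272), and both calls against Par held without any single library. BrM2 was at least 6.01-fold higher than LM2 (adjusted p = 0.0125), and this call was lost without LM2 replicate 2 (adjusted p = 0.0617).

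**Figure D2:**
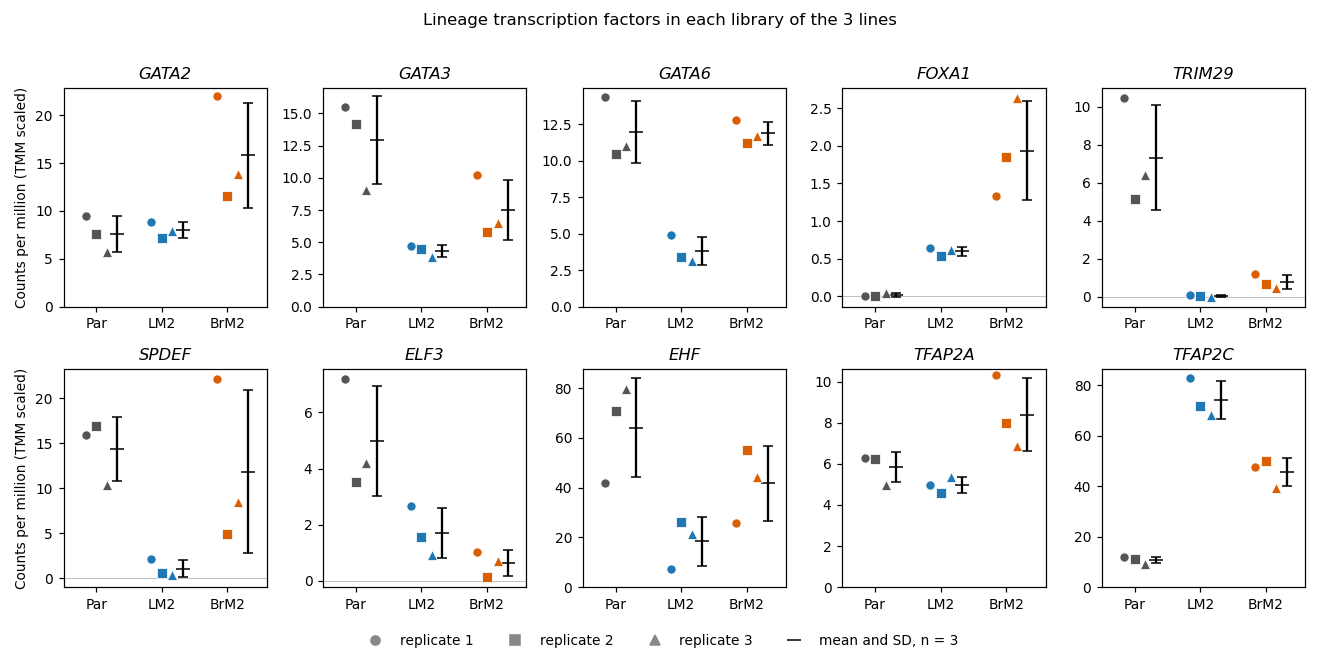
CPM (vertical axis, TMM scaled) of the 10 factors in each library of Par, LM2 and BrM2 (horizontal axis). Circles, squares and triangles are replicates 1, 2 and 3, and black bars are the mean and SD of 3 libraries. *TFAP2C* lay at 9.31 to 11.8 CPM in Par and at 68.1 to 82.9 CPM in LM2, *GATA6* was lowest in all 3 LM2 libraries, and replicate 1 was the lowest library of each line for *EHF*.

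Compared per kb of exon, the leading factor changed between lines. In Par the order was *EHF* with 9.68 CPM per kb, *SPDEF* with 7.50, *GATA3* with 3.80, *TFAP2C* with 3.59 and *GATA6* with 3.15. The SDs of *EHF* and *SPDEF* overlapped, as did those of the next 3. In LM2 *TFAP2C* led with 24.7 CPM per kb, followed by *EHF* with 2.78, *GATA2* with 1.63 and *GATA3* with 1.27. In BrM2 *TFAP2C* had 15.2 CPM per kb, *EHF* 6.31, *SPDEF* 6.20, *GATA2* 3.22 and *GATA6* 3.13. *TFAP2C* stood above the rest by more than the SDs in both metastatic lines, while *EHF* and *SPDEF*, and *GATA2* and *GATA6*, overlapped in BrM2. At the low end were *TRIM29* in LM2 with 0.00465 CPM per kb and *FOXA1* in Par with 0.00297.

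The relatives of these factors were read beside them. Of 11 listed paralogues 5 passed the filter, and 6 (*GATA1*, *GATA4*, *GATA5*, *ELF5*, *TFAP2B*, *TFAP2D*) were at or under 3 counts in every library of each line. *ELF5* is the ETS factor of alveolar cells. *FOXA2*, the endodermal relative of *FOXA1*, was at 4.42 CPM per kb in Par, 3.37 in LM2 and 12.3 in BrM2, above *FOXA1* in each. *FOXA2* rose by 1.47 in BrM2 against Par (SE 0.39, adjusted p = 0.0381, edgeR) and by 1.86 against LM2 (SE 0.40, adjusted p = 0.0211). *FOXA3* rose by 2.22 in BrM2 against Par (SE 0.46, adjusted p = 0.0125). *TRPS1*, an atypical GATA protein that represses, had 9.08, 18.4 and 11.9 CPM in Par, LM2 and BrM2, with an adjusted p of 0.236 for LM2 against Par and 0.00135 with the block. For BrM2 against LM2 these were 0.497 and 0.0125. *TRIM16* and *TFAP2E* passed in no comparison, with the block or without it. The median log2 fold change of the 5 was 0.06 for LM2 against Par, 0.40 for BrM2 against Par and 0.34 for BrM2 against LM2.

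**Figure D3:**
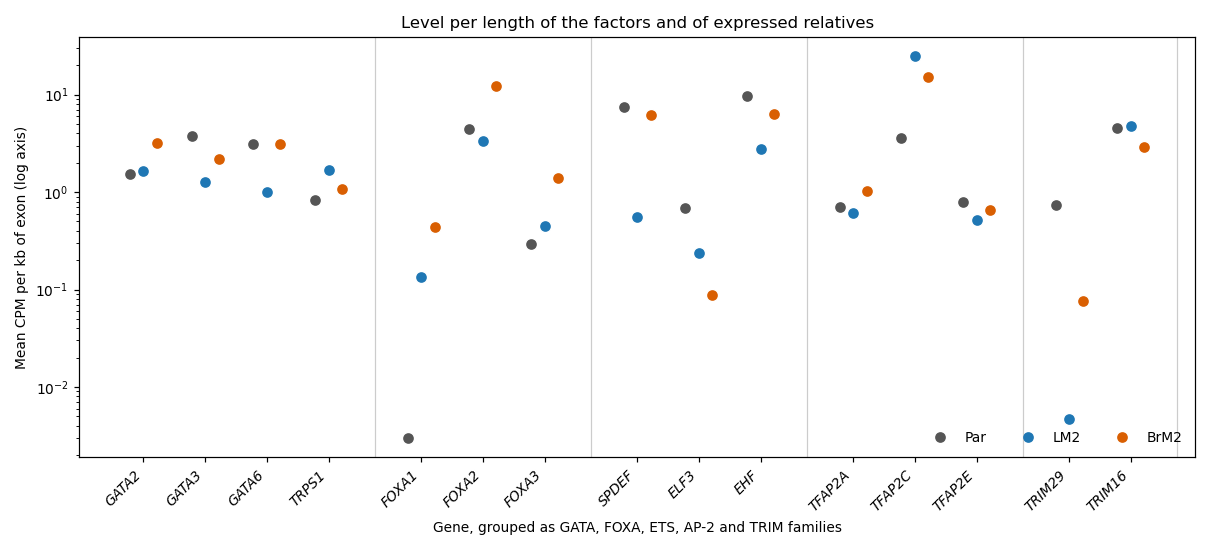
Mean CPM per kb of exon (vertical axis, log scale) of the 10 factors and of the relatives that passed the filter (horizontal axis), one point per line. *FOXA2* lies above *FOXA1* in all 3 lines, and *TFAP2C* is the highest point of LM2 at 24.7 and of BrM2 at 15.2.

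Some factors passed a comparison and have a single start site in the RefSeq promoter table (GRCh38.p14). For these, the 250 bases before the annotated start are shown, since their transcripts differed between lines. Which starts these cells use was not examined. Capitals mark matches on either strand to simple forms of known motifs. For GATA factors the letters AGATAA were searched, and for AP-2 proteins the letters GCCNNNGGC. Forkhead proteins were represented by TGTTTAC and ETS proteins by their core GGAAG. The other motifs were the promoter element TATAAA, the E-box CAGGTG that ZEB and SNAI repressors bind, and the GC box GGGCGG. No matches overlap in these 4 sequences. They are *GATA6* on the plus strand (chr18:22169339-22169588), *FOXA1* on the minus strand (chr14:37595250-37595499), *SPDEF* on the minus strand (chr6:34556330-34556579) and *ELF3* on the plus strand (chr1:202010337-202010586).
GATA6: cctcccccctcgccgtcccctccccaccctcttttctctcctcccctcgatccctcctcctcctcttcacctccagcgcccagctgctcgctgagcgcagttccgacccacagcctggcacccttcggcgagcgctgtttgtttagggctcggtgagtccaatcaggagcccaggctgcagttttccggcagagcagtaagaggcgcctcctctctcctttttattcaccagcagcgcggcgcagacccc
FOXA1: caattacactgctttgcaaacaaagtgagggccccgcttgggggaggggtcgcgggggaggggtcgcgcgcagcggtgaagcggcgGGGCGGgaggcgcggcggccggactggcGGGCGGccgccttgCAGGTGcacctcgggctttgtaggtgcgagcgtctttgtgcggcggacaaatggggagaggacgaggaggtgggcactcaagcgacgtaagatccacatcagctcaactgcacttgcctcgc
SPDEF: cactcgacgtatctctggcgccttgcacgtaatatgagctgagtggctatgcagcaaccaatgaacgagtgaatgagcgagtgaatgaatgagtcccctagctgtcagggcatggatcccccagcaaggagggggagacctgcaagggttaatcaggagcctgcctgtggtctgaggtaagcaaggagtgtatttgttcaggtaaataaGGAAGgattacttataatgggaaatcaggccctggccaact
ELF3: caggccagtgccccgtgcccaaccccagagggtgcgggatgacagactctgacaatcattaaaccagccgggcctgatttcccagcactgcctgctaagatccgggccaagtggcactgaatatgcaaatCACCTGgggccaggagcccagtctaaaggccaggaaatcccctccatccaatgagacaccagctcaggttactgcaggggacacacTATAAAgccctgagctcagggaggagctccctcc
*FOXA1* held an E-box match and a pair of GC box matches, *SPDEF* an ETS match with its first base at -41 from the start, and *ELF3* an E-box match at -120 and a TATA match at -34. The *GATA6* sequence held none of these letters. Of 35116 sequences of this length, 9.17% held the GATA letters, 19.8% the AP-2 letters, 2.98% the forkhead letters, 65.1% the ETS letters, 10.7% the TATA letters, 17.5% the E-box letters and 42.6% the GC box letters. The table held 16 sequences of 8 of the factors, of which 1, 5, 1, 7, 3, 3 and 6 held these letters in that order. It held none for *TFAP2C* or *TRIM29*. The forkhead and GATA matches were both before 1 start of *EHF*.

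Transcripts that begin beside a factor were read in the same libraries. *GATA6-AS1* is transcribed away from *GATA6*, from a start 621 bases before that of *GATA6* in RefSeq. It had 21, 48 and 38 counts in Par, 5, 1 and 4 in LM2 and 10, 9 and 8 in BrM2. It was lowest in LM2, as *GATA6* was, but unlike *GATA6* its BrM2 libraries all lay below Par. *GATA6-AS1* fell by 3.47 in LM2 (SE 0.56, adjusted p = 0.00548, edgeR), and for BrM2 against Par the log2 difference was -1.73 (SE 0.50, adjusted p = 0.0509, and 0.0103 with the block). *ELF3-AS1*, which starts 234 bases before *ELF3* on the other strand and thus inside the sequence shown above, did not pass the filter, with 1.56 CPM ± 0.444 in Par, 1.66 ± 0.238 in LM2 and 0.906 ± 0.479 in BrM2 (SD, n = 3). *GATA2-AS1* passed in no comparison, with 1.69, 1.16 and 1.22 CPM in Par, LM2 and BrM2. *TFAP2A-AS1*, at 1.23, 0.772 and 0.835 CPM, did not pass the filter, and *GATA3-AS1* was at or under 3 counts in all libraries. In GENCODE, exon bases shared with *GATA6-AS1* made up 2.47% of *GATA6* and those shared with *GATA2-AS1* 1.59% of *GATA2*, both on the other strand. An unnamed gene, also on the other strand, shared 8.45% of the exon bases of *GATA6* and had a mean of 2.44 counts per library. The part of these neighbours in the values was not tested.

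Of 25 listed partner factors of luminal cells 16 passed the filter. The oestrogen receptor gene *ESR1* and the progesterone receptor gene *PGR*, which define hormone-sensing cells with *GATA3* and *FOXA1*, did not pass the filter. The most abundant partners, *RUNX1* (93.9, 106 and 72.4 CPM in Par, LM2 and BrM2), *CITED2* (67.7, 63.8 and 115), *STAT5B* (72.4, 78.5 and 90.7) and *XBP1* (69.7, 87.4 and 73.6), passed in no comparison without the block. With the block, for BrM2 against Par the adjusted p was 0.0233 for *RUNX1* (log2 difference -0.38), 0.0101 for *CITED2* (0.65) and 0.0472 for *STAT5B* (0.33). For BrM2 against LM2 it was 0.00498 for *RUNX1* (-0.54) and 0.00316 for *CITED2* (0.84).

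Luminal epithelial genes, the kind of gene these factors are known to control, were lower in LM2 than in Par for 8 of 21 tested and higher for 1, where 8.69% of all genes were called. In BrM2 against Par 3 were higher and 5 lower (13.3% of all genes called), and in BrM2 against LM2 5 were higher and 3 lower (8.1%). The 5 higher in BrM2 than in LM2 were *KRT19*, *MAL2*, *AGR2*, *ESRP2* and *CLDN4*. All 5 were also among the 8 that were below Par in LM2, so that LM2 was lowest in them by the way they were picked. In BrM2 against Par they differed among themselves. *CLDN4* was lower there by a log2 difference of -2.26 (adjusted p = 0.00926, edgeR) and *ESRP2* higher by 0.83 (adjusted p = 0.0335). For *AGR2* it was -1.11 (adjusted p = 0.0670, and 0.00524 with the block) and for *MAL2* 0.27 (adjusted p = 0.728). *KRT19*, a luminal keratin, was at 206, 45.5 and 191 CPM in Par, LM2 and BrM2. It fell by 2.18 in LM2 (SE 0.45, adjusted p = 0.0173, edgeR), and its log2 difference between BrM2 and Par was -0.11 (adjusted p = 0.932). *AGR2*, a disulfide isomerase of secretory cells, fell by 4.19 in LM2 (SE 0.41, adjusted p = 0.000444) and *MAL2*, a protein of apical transport, was higher in BrM2 than in LM2 by 3.37 (SE 0.40, adjusted p = 0.00127). The mucin gene *MUC1* fell by 3.01 in LM2 (SE 0.41, adjusted p = 0.00213) and fell by 5.60 in BrM2 (SE 0.49, adjusted p = 0.000202), and *CD24* rose in both. *KRT8*, *KRT18* and *KRT7* were the most abundant, and of these *KRT7* fell in both lines while *KRT8* and *KRT18* did not pass. With the block *KRT8* was lower in LM2 (-0.82, adjusted p = 0.00490) and in BrM2 (-0.79, adjusted p = 0.00465). In the blocked fit 1 luminal gene was higher and 14 lower for LM2 against Par, 4 higher and 9 lower for BrM2 against Par, and 10 higher and 3 lower for BrM2 against LM2. That fit called 34.5%, 42.7% and 37.5% of all genes. The list's median log2 fold change was -0.69 for LM2 against Par, -0.39 for BrM2 against Par and 0.34 for BrM2 against LM2.

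**Figure D4:**
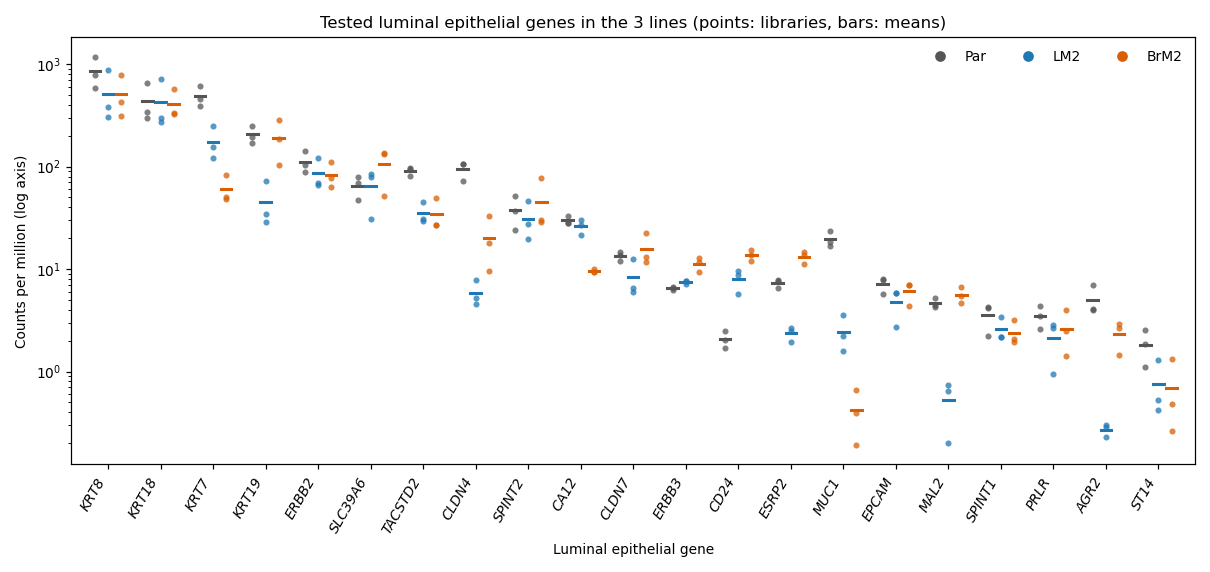
CPM (vertical axis, log scale) of the 21 tested luminal epithelial genes (horizontal axis) by line, with a point per library and a bar at the mean of 3. *KRT19*, *CLDN4*, *ESRP2*, *MAL2* and *AGR2* have their lowest bar in LM2, and *KRT7* and *MUC1* have theirs in BrM2.

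Markers of epithelial cells were found only in part. *KRT8* and *KRT18* were high in every line. The adherens junction gene *CDH1* and the tight junction gene *CLDN3* did not pass the filter, while *EPCAM*, *CLDN4* and *CLDN7* passed it. The mesenchymal gene *VIM* rose in LM2 by 1.08 (adjusted p = 0.0196, edgeR) and in BrM2 by 1.05 (adjusted p = 0.0163). *FN1* was at 886, 1131 and 290 CPM in Par, LM2 and BrM2. Its log2 difference from Par was -1.61 in BrM2 (adjusted p = 0.000413) and 0.35 in LM2 (adjusted p = 0.279, and 0.0464 with the block). *CDH2* did not pass the filter, and *TWIST1* had no counts. Of 9 tested mesenchymal genes, 3 were higher and 1 lower in each metastatic line than in Par, where 8.69% and 13.3% of all genes were called in LM2 and BrM2, with *SPARC* the largest rise of the list at 7.81 in LM2 and 3.19 in BrM2. With the block, which called 34.5% and 42.7% of all genes, 6 mesenchymal genes were higher and 1 lower in LM2, and 3 were higher and 3 lower in BrM2. For BrM2 against LM2, 1 was higher and 2 lower (8.1% of all genes called), and with the block 1 higher and 7 lower (37.5%). *ZEB1*, the repressor of epithelial genes, had 73.8, 92.3 and 60.5 CPM in Par, LM2 and BrM2 and passed in no comparison without the block. With the block *ZEB1* was lower in BrM2 than in LM2 (-0.66, adjusted p = 0.0172). The repressor gene *SNAI2* had 32.7, 49.1 and 26.4 CPM in Par, LM2 and BrM2 and also passed in no comparison without the block. With the block it was higher in LM2 than in Par (0.57, adjusted p = 0.00863) and lower in BrM2 than in LM2 (-0.89, adjusted p = 0.000681). Of 13 tested basal and myoepithelial genes, against Par 1 rose and 1 fell in LM2, while 2 rose and 4 fell in BrM2, beside the same 8.69% and 13.3% of all genes. With the block 2 rose and 3 fell in LM2 and 4 rose and 6 fell in BrM2, beside 34.5% and 42.7%. *TP63*, the basal master factor, fell by 3.45 in BrM2 against Par (SE 0.81, adjusted p = 0.0233). Its level was low throughout, with 34, 31 and 62 counts in Par, 26, 44 and 20 in LM2 and 7, 0 and 2 in BrM2. *TAGLN*, at 16.5, 46.6 and 10.2 CPM in Par, LM2 and BrM2, had the largest called basal change for LM2 against Par (adjusted p = 0.0407, edgeR). *ITGB4* had the largest for BrM2 against LM2, with a log2 difference of -2.32 (SE 0.41, adjusted p = 0.00881). For BrM2 against Par that of *ITGB4* was -2.03 (SE 0.41, adjusted p = 0.0111). Of the abundant basal genes, *EGFR* rose by 0.94 in BrM2 (SE 0.21, adjusted p = 0.0173), *CAV1* fell by 0.99 there (SE 0.25, adjusted p = 0.0335), *LAMB3* was higher in BrM2 than in LM2 by 1.19 (SE 0.30, adjusted p = 0.0447), and *ITGA6* passed in no comparison without the block. With the block the adjusted p of *ITGA6* was 0.000806 in LM2 (0.80) and 0.00505 in BrM2 (0.56). Median log2 fold changes for LM2 against Par and BrM2 against Par were 0.01 and -0.30 for the basal list and 0.59 and -0.29 for the mesenchymal list.

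Of 14 listed markers of other cell types, *CD3E*, *CD68*, *RBFOX3*, *SFTPC* and *SFTPB* were at or under 3 counts in every library. *CD14*, a marker of monocytes and macrophages, passed the filter with 3.66, 2.07 and 1.92 CPM in Par, LM2 and BrM2, and the glial marker *GFAP* with 13.5, 13.0 and 7.08 CPM. The fibroblast collagen gene *COL1A1* was at 6.84, 43.5 and 7.68 CPM and the pericyte receptor gene *PDGFRB* at 28.9, 6.06 and 8.06 CPM. The summed level of the 14 was 51.2 to 64.5 CPM in Par, 52.4 to 91.6 in LM2 and 20.8 to 37.9 in BrM2, most of it *COL1A1*, *PDGFRB*, *GFAP* and *PECAM1*. Of 5 tested, *COL1A1* was higher in LM2 than in Par and *PDGFRB* lower in both metastatic lines. With the block 1 was higher and 3 lower in LM2 (*CD14*, *PECAM1* and *PDGFRB*) and 4 were lower in BrM2 (these and *GFAP*). Their part in the differences of the factors was not tested.

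Across the 9 libraries, the factors resembled some genes closely. These correlations of log2 CPM are descriptions over libraries that share line and replicate number. *SPDEF* and *GATA6* had a Pearson correlation of 0.954 with each other, *GATA3* and *TRIM29* of 0.940, and *TFAP2C* and *TRIM29* of -0.936. The tested gene most like *SPDEF* was *KRT19* (0.992), followed by *TRIM8* and *SLC26A11*, and those most like *GATA6* were *CDK20* (0.993), *CD40* and *TCEA3*. *TFAP2C* was most like *ZIC2* (0.996), *LGALS9C* and *SYTL3*, and *TRIM29* most like *LINC02009* (0.996), *TSPOAP1* and *CST1*. *GATA3* was most like *FZD7* (0.991), *FAM83H* and *VSTM2L*, *GATA2* most like *KDM2B* (0.984), *GTPBP3* and *GTSE1*, *FOXA1* most like *PHACTR1* (0.992), *NEDD4L* and *KHDRBS3*, and *ELF3* most like *PBX4* (0.9798), *CIART* and *DHX58*. Once replicate means were removed, 2 of the 3 genes remained for *SPDEF* and *TFAP2C*, 1 for *GATA3*, *GATA6* and *TRIM29*, and 0 for *GATA2*, *FOXA1* and *ELF3*.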

How the data were processed

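RNA-seq of Par, LM2 and BrM2 was used, 9 libraries in all with 3 per line, which were grouped by the line and replicate number of the labels. The authors made stranded mRNA libraries, aligned paired-end reads to hg38 with STAR (2.7.0 in the submitters' processing notes) and deposited read counts per gene without normalization. A further deposited table holds the authors' DESeq2 fold changes and p-values, and it was not used here. The strand counted is not given in the sources used here.

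Counts of 3 repeated identifiers among 58887 rows were added up. A low-count filter modelled on HTSFilter, which the methods name, left 13055 genes, those with a largest normalized count above 47.15. Lines were compared in edgeR 4.0.16 (TMM, 2-sided quasi-likelihood test, all 9 libraries, Benjamini-Hochberg adjustment, threshold 0.05). Log2 CPM for correlations used a prior count of 2. A line with 3 counts or fewer in each library was taken as at the floor, and its folds as lower bounds. The bounds set the mean of the other line over the floor of 3 counts and do not carry the spread between replicates. The p-values without the block measure the spread between the replicates of a line, which were harvested at different passages. That spread includes the shift of replicate 1 seen in all lines. The p-values with the block measure the spread left after the replicate number is fitted. Deviations from the line means correlated at 0.23 to 0.90 in all 9 pairs of equal replicate number, and the numbers were treated as a pairing. With 3 libraries per line the deviations within a line depend on each other, and replicate 1 stood apart in each. Pairs of unequal number were not compared, so these correlations cannot show that replicates 2 and 3 match across lines. Alternatives were RLE factors, DESeq2 1.42.0, other filters, the replicate block, only the lines compared, and leaving out each library or replicate number.

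Exon lengths, GC content, shared 50-base stretches and overlaps came from GENCODE v44 lifted to GRCh37, and gene positions and promoter sequences from RefSeq GRCh38.p14. Exon lengths join the exons of all annotated transcripts of a gene, whether or not these cells make them. The named genes are the 10 factors, the 4 most abundant genes of each list and the largest called change per list and comparison, neighbours of the factors, and the 3 genes most correlated with each called factor. Other luminal genes, *CDH1*, *CDH2*, *TWIST1*, *SNAI2*, *ESR1*, *PGR*, *FOXA3*, *TFAP2A-AS2*, *CLDN3*, *CD14* and the paralogues at the floor were named after their values were seen. The result of a partner factor that the rule selects, with the counts and medians of its list, is not reported here. The factors and the gene lists were chosen with earlier results of these data known. R 4.3.3, Python 3.11.15, pandas 2.3.3, numpy 2.4.6 and matplotlib 3.10.9 were used besides.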

Additional observations from a re-analysis of the deposited data

Results flagged for a closer look

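In 4 of the factors the differences of LM2 and BrM2 from Par were themselves different, by edgeR's test of BrM2 against LM2 over all 9 libraries. *SPDEF* was higher in BrM2 than in LM2 by a log2 difference of 3.48 (3 of 3 replicate numbers), and *GATA6* by 1.64 (3 of 3). *FOXA1* was above Par in both lines and higher in BrM2 than in LM2 by 1.71 (3 of 3). *TRIM29* was below Par in both lines and higher in BrM2 by a fitted 3.96 (3 of 3), for which the bound from the floor of 3 counts was 6.01-fold.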

How the results depend on the processing

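No log2 fold change that had been called changed sign under any alternative. With DESeq2, 7 factors passed for BrM2 against LM2, and 1893 and 1824 of all genes for LM2 against Par and BrM2 against LM2. With the replicate block, 8 factors passed for BrM2 against Par and 10 for BrM2 against LM2, and 4510, 5577 and 4896 of all genes for LM2 against Par, BrM2 against Par and BrM2 against LM2. These compare with 1134, 1733 and 1057 without the block. With only the compared lines in the fit, 2 factors (*GATA6*, *TRIM29*) and 598 genes passed for BrM2 against LM2. Leaving out a library, or a replicate number from all lines, without the block gave 1 to 8 factors for LM2 against Par, 1 to 8 for BrM2 against Par and 0 to 7 for BrM2 against LM2, and 70 to 4327, 159 to 5274 and 53 to 4257 of all genes. With the block, which was added to these fits after seeing the data, 7, 9 and 8 factors passed for BrM2 against LM2 without replicates 1, 2 and 3. Of all genes, 3651, 4212 and 2149 then passed for LM2 against Par, 4808, 5846 and 3017 for BrM2 against Par, and 3725, 5374 and 2066 for BrM2 against LM2. Without replicate 1 and without the block, 8, 8 and 7 factors passed beside 4327, 5274 and 4257 of all genes. Without replicate 2 these were 1 (*TFAP2C*), 1 (*FOXA1*) and 0, beside 70, 159 and 53 genes, and without replicate 3 they were 2 (*TFAP2C*, *TRIM29*), 2 (*FOXA1*, *TFAP2C*) and 0, beside 136, 274 and 113 genes. In these fits each line has 2 libraries. *SPDEF* passed as lower in BrM2 than in Par without replicate 1, but not when the block was added to that fit (adjusted p = 0.0805) nor with the block alone (0.252). The cause of these shifts was not tested. *GATA2* in BrM2 against Par was lost with RLE factors, with no filter and with only the compared lines. Depth limits *FOXA1* and *TRIM29*, whose lowest lines are at or under 3 counts per library. Each was kept by the filter only through its highest line, and both passed the same comparisons with no filter as with it.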
